A study of Homo sapiens with 17 samples.

Results

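The H2122 arrays compared here were 3 from cells carrying kinase-dead LKB1 K78I and 2 from cells carrying the empty pBABE vector, chosen by their titles, 5 of 17 arrays in all. H2122 and A549, the other line of the study, are human non-small cell lung cancer lines that lack functional LKB1 of their own, as is known of them. Each line was made to carry wild-type LKB1, LKB1 K78I or the empty vector by stable retroviral transduction, followed by 2 weeks in puromycin at 1 µg per ml, and was harvested while dividing in medium with 5% serum. All groups, the empty vector included, had therefore been through virus and puromycin. pBABE vectors drive the insert from the viral promoter, not from the promoter of STK11, and the labels do not say whether a line is 1 clone or a pool. RNA (130 ng per array) was read on expression arrays, and the deposited log2 levels of 17958 named genes were tested. H2122 gave 3 wild-type LKB1 arrays beside the 5 above, and A549 gave 9 arrays, 3 of each construct. The labels do not say whether the replicates of a group are separate cultures. The p-values therefore measure the spread between these arrays only, and that spread may be technical.

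LKB1, the product of STK11, is a serine/threonine kinase that works in a complex with a STRAD pseudokinase and the scaffold MO25 (CAB39). It phosphorylates and turns on AMPK and a family of AMPK-related kinases, among them the salt-inducible kinases (SIKs), the NUAK kinases and the MARK kinases. SIKs hold the CRTC coactivators in the cytoplasm, so that loss of LKB1 is known to free CRTC to act with CREB on genes with cAMP response elements. K78I replaces the lysine of the ATP pocket and abolishes kinase activity, while the protein itself is still made, which is why it serves as a control for wild-type LKB1. The question was what the kinase-dead construct changed against the empty vector, and whether the values lay along the wild-type response.

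The labels of 3 of the 8 H2122 arrays conflict. For pBABE replicate 2 the source name says wild-type LKB1, for K78I replicate 3 it says empty vector and for LKB1 replicate 3 it says K78I, while the title and the transduced construct listed for each array match. STK11 was at 6.22 in pBABE replicate 2 and at 11.26 in K78I replicate 3, which goes with the titles. It cannot separate wild-type from K78I transcripts, so it does not check LKB1 replicate 3, where FN1 stood at 11.20, beside 10.98 and 11.15 in the other LKB1 arrays and 7.72 to 8.71 in the K78I arrays. The epithelial genes EPCAM, KRT7, KRT8, KRT18, KRT19 and CDH1 lay between 10.19 and 12.16 in every H2122 array. The alveolar lineage genes NKX2-1, NAPSA, SFTPB and SFTPC lay between 3.76 and 5.95, near or under the array medians of 5.62 to 5.73, and all 12 measured fibroblast markers were at or under 5.27.

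The 2 empty vector arrays stood apart from each other. The SD of their differences over genes was 0.520, with 1080 genes over 1 log2 unit apart, against 0.239 to 0.299 and 71 to 142 genes for pairs of K78I arrays. The mean of 45 cell cycle genes, as a deviation from the mean of the 3 H2122 group means, was 0.37 in pBABE replicate 1 and -1.31 in pBABE replicate 2. It was 0.32, 0.33 and 0.36 in the K78I arrays, so pBABE replicate 2 was low for proliferation genes and the other 4 arrays were alike. Where a K78I difference moved much with this array, the levels of both pBABE arrays, or the differences from each, are given beside it.

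STK11 itself came first, as the check of the construct. Its log2 level was 11.27, 11.31 and 11.26 in the K78I arrays, 6.33 and 6.22 in the empty vector arrays and 11.20, 11.35 and 11.26 in the wild-type LKB1 arrays. The K78I arrays were far above the empty vector and level with wild-type LKB1. The difference between K78I and empty vector was 5.00 (limma, SE 0.94, 3 against 2 arrays), with an adjusted p of 0.167, since the fit shares its spread with A549, where 2 control arrays carry an STK11 level against their label. On the 8 H2122 arrays alone the same difference had an SE of 0.11 and a limma adjusted p of 1.61e-07. An exact permutation test over the 5 arrays gave a two-sided p of 0.2, the smallest that 10 arrangements allow. LKB1 minus K78I was -0.01 for STK11 (limma adjusted p 0.998, SE 0.84), and the arrays of these constructs overlapped.

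Across all genes, no gene passed an adjusted p of 0.05 for K78I against empty vector with limma over 17 arrays (0 of 17958, 0%; lowest adjusted p 0.167), and 1260 had an unadjusted p under 0.05. Of these, 666 were higher (3.71% of all genes) and 594 lower (3.31%). The point estimates reached 2-fold higher for 102 genes and 2-fold lower for 84. With the 8 H2122 arrays alone 1 gene passed, STK11. The count rested on which empty vector array was present: without pBABE replicate 1 the remaining lone control was assumed to vary like the other groups and 1041 genes passed, and without pBABE replicate 2 the count was 0. On values simulated for this comparison, with the same 17958 genes, limma called 13.4% of genes shifted by 0.5 log2 units. It called 59.7% of those shifted by 1 and 93.9% of those shifted by 2, so shifts under 1 unit would often be missed. In the measured data, the fit over 17 arrays did not call STK11, at a difference of 5.00, or any gene that reached 2-fold. Whether these rates hold for the measured arrays, where the empty vector arrays stood apart, was not tested.

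More genes passed in the comparisons with the wild-type construct. LKB1 minus pBABE passed for 1037 genes (5.77%), and LKB1 minus K78I passed for 698 (3.89%), of which 535 were higher with wild-type LKB1 (2.98%) and 163 lower (0.908%). Array weights moved the count of LKB1 minus K78I to 3721 genes, and leaving out K78I replicate 3 moved it to 281 and K78I replicate 2 to 401. For LKB1 minus pBABE, the count was 462 without pBABE replicate 2 and 1800 without pBABE replicate 1. These comparisons share arrays with K78I minus pBABE, so their values are set side by side below and no likeness between them is read. In A549, K78I minus pBABE passed for 0 genes with limma (472 at an unadjusted p under 0.05). The difference of the K78I effect between the lines passed for 0 genes (0%, with 868 at an unadjusted p under 0.05). That count rose above 0 when pBABE replicate 1 of H2122 was left out. In 2 A549 control arrays STK11 went against the label, and STK11 differed far less between K78I and pBABE in A549 than in H2122. These counts therefore cannot decide whether K78I changes genes in A549.

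The 3 genes given as markers of the wild-type response, FN1, CDH2 and IGFBP7, all lay between the empty vector and the wild-type arrays in the K78I cells. On the A549 arrays alone, wild-type LKB1 minus controls was called for IGFBP7 (3.86, limma adjusted p 9.11e-05). It was not called for FN1 (1.42, limma adjusted p 0.0655) or CDH2 (0.42, limma adjusted p 0.125). FN1 encodes fibronectin, the matrix glycoprotein bound by integrins. Its level was 8.71, 7.72 and 7.90 with K78I, 7.44 and 5.21 with empty vector and 11.15, 10.98 and 11.20 with wild-type LKB1. The groups did not overlap, yet the K78I difference depended on the control array: K78I minus pBABE was 1.79 (SE 0.56, limma adjusted p 0.540), or 0.67 against pBABE replicate 1 and 2.90 against replicate 2. Wild-type LKB1 exceeded K78I by 2.998 (SE 0.50, limma adjusted p 0.00326).

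CDH2, or N-cadherin, is a cell-cell adhesion protein typical of mesenchymal cells. It was at 6.04, 6.13 and 5.50 with K78I, 5.29 and 4.49 with empty vector and 8.05, 8.46 and 8.45 with wild-type LKB1. K78I minus pBABE was 1.00 (SE 0.24, limma adjusted p 0.341), 0.60 against pBABE replicate 1 and 1.40 against replicate 2, and LKB1 exceeded K78I by 2.43 (adjusted p 3.01e-05). IGFBP7, a secreted protein that binds insulin-like growth factors, was at 8.70, 8.10 and 7.90 with K78I, 7.60 and 6.49 with empty vector and 10.50, 10.90 and 10.91 with wild-type LKB1. Its K78I minus pBABE value was 1.19 (SE 0.34, limma adjusted p 0.486), 0.64 or 1.74 against either control array, and LKB1 exceeded K78I by 2.54 (adjusted p 0.000334). For all 3 genes the K78I arrays were above both empty vector arrays and below every wild-type array. FN1 and IGFBP7 are also among the 8 highest wild-type differences in H2122, which use the same wild-type and empty vector arrays. The markers were set with earlier results of these data known, so this order supports nothing by itself. In A549 the K78I minus pBABE values were 0.67 for FN1, -0.06 for CDH2 and -0.30 for IGFBP7. The differences between lines were 1.11, 1.07 and 1.49, none past the threshold (limma adjusted p 0.868 for each). STK11 itself differed far less between K78I and pBABE in A549 than in H2122, with 2 A549 control arrays against their label. The A549 values therefore cannot decide whether K78I changes these markers there, and the differences between lines carry the same limit.

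**Figure D1:**
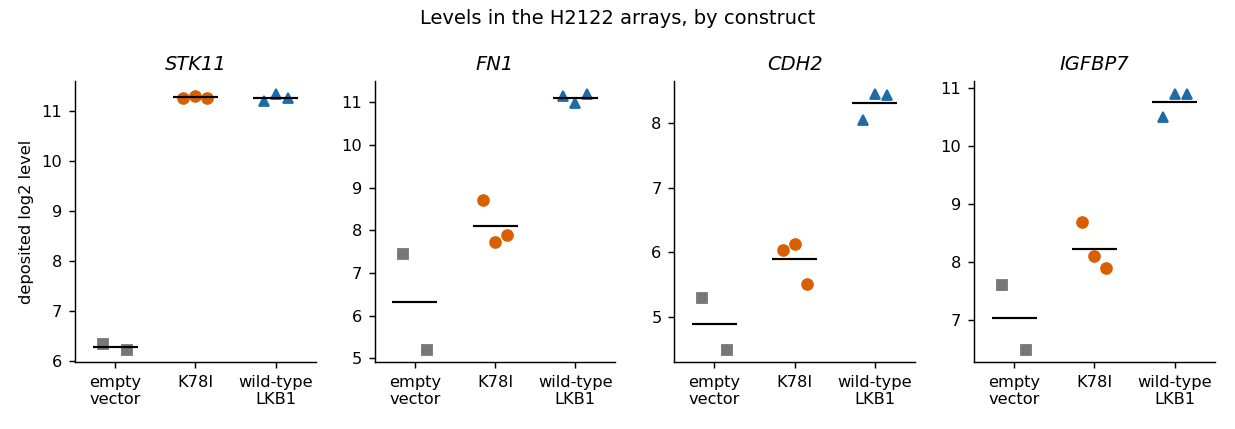
Deposited log2 level (vertical axis, a scale of its own for each gene that does not start at 0) of STK11, FN1, CDH2 and IGFBP7 in the 8 H2122 arrays, 1 point per array, with horizontal lines at the group means. STK11 is level between K78I and wild-type LKB1, while the K78I arrays of FN1, CDH2 and IGFBP7 sit above both empty vector arrays and below every wild-type array.

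A cAMP response element of 8 bases, TGACGTCA, which reads the same on both strands, was searched in the 250 bases before the gene start in the RefSeq promoter table (GRCh38.p14). It is shown for FN1 and for the CREB and CRTC targets in which it was found, because these are the genes whose control by CREB and CRTC is background to the comparison. Of 35116 promoters 1.65% held it. Of 33 measured targets 29 were in the table and 4 of them held it (13.8%). The FN1 match began 183 bases before the start, in the minus-strand window chr2:215436218-215436277, and the DUSP1 match 125 bases before, in chr5:172771287-172771346, also minus strand. SST (chr3:187670408-187670467, minus strand) had it 47 bases before, and PDE7B (chr6:135851520-135851579, plus strand) 155 bases before. AVPI1 had it 242 bases before its start (chr10:97687450-97687491, minus strand). The capitals mark the element:
FN1: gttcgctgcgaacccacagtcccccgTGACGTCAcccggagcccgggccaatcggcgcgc
DUSP1: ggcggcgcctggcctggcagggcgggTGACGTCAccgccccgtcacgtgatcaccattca
SST: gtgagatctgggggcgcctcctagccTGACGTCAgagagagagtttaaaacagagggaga
PDE7B: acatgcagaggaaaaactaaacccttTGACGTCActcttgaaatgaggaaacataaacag
AVPI1: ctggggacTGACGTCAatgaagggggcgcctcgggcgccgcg
The window of CDH2 had 0 matches. Among the 4 targets with a match 2 (DUSP1 and SST) had every K78I array below both empty vector arrays, and among the 25 without a match 7 did. Only these exact 8 bases were searched, so a window without a match may still hold a shorter or variant form of the element. The counts with and without a match therefore do not separate targets with an element from those without. A match is a description of these letters and names no factor as bound there.

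CREB and CRTC targets had the largest share of members below the empty vector among the 27 lists drawn in the plot of list shares. Over all genes, every K78I array was above both empty vector arrays for 9.33% and below both for 8.89%. Of the 10 arrangements of the 5 arrays, a single arrangement sets every K78I array above both controls and a single arrangement below. These shares over all genes are therefore not counts of changed genes. Of 33 measured CREB and CRTC targets 3 were above and 11 below (33.3%), none called, with a median K78I minus pBABE of -0.30 against -0.02 over all genes. The median was -0.10 against pBABE replicate 1 and -0.51 against replicate 2, and -0.67 for LKB1 minus pBABE. Per-array list means were -0.04, 0.01 and 0.12 with K78I, 0.17 and 0.58 with empty vector and -0.54, -0.21 and -0.47 with wild-type LKB1, so the K78I arrays lay between the other groups.

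Among its members, PDE4D, a phosphodiesterase that breaks down cAMP, was at 8.78, 8.90 and 9.03 with K78I and at 9.40 and 9.83 with empty vector. The wild-type arrays of PDE4D were lower still, at 7.76, 8.69 and 8.05. K78I minus pBABE for PDE4D was -0.71 (SE 0.22, limma adjusted p 0.540), beside -1.45 for LKB1 minus pBABE (adjusted p 0.00112). DUSP1, a phosphatase of MAP kinases, was at 7.37, 7.61 and 7.37 with K78I, 7.83 and 9.45 with empty vector and 7.49, 7.24 and 7.12 with wild-type LKB1. For DUSP1 the K78I and wild-type arrays therefore overlapped, and the difference of -1.19 from empty vector rested mostly on pBABE replicate 2. NR4A2, a nuclear receptor induced by cAMP, was -1.31 for K78I minus pBABE, which was -0.69 against pBABE replicate 1 and -1.94 against replicate 2. PDE3A, another cAMP phosphodiesterase, was -0.84, which was -0.32 and -1.36 against these arrays, beside -2.97 with wild-type LKB1. CRTC2, one of the coactivators, had the opposite sign at 0.27 (0.20 and 0.34). CRTC3 was -0.47, of which nearly all came from pBABE replicate 2 (-0.08 and -0.86).

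Among the kinases themselves the K78I values were small. Of the 23 measured members of the LKB1 complex and its client kinases 2 were above both empty vector arrays and 3 below, none called, with a median of -0.05. STRADA was at -0.10 and CAB39, or MO25, at -0.10, and the AMPK catalytic subunits PRKAA1 and PRKAA2 were at 0.23 and -0.02. The NUAK kinases differed between the constructs. NUAK1 was at 6.56, 6.22 and 6.23 with K78I and at 5.91 and 6.42 with empty vector, groups that overlapped, while wild-type LKB1 gave 7.99, 8.69 and 8.66. NUAK1 rose by 2.11 with wild-type LKB1 over K78I (limma adjusted p 9.09e-05), and NUAK2 by 1.65 (adjusted p 0.031). NUAK2 was at 6.70, 6.64 and 6.29 with K78I, above the 6.07 and 5.92 of the empty vector and below the 8.06 to 8.36 of wild-type LKB1.

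**Figure D2:**
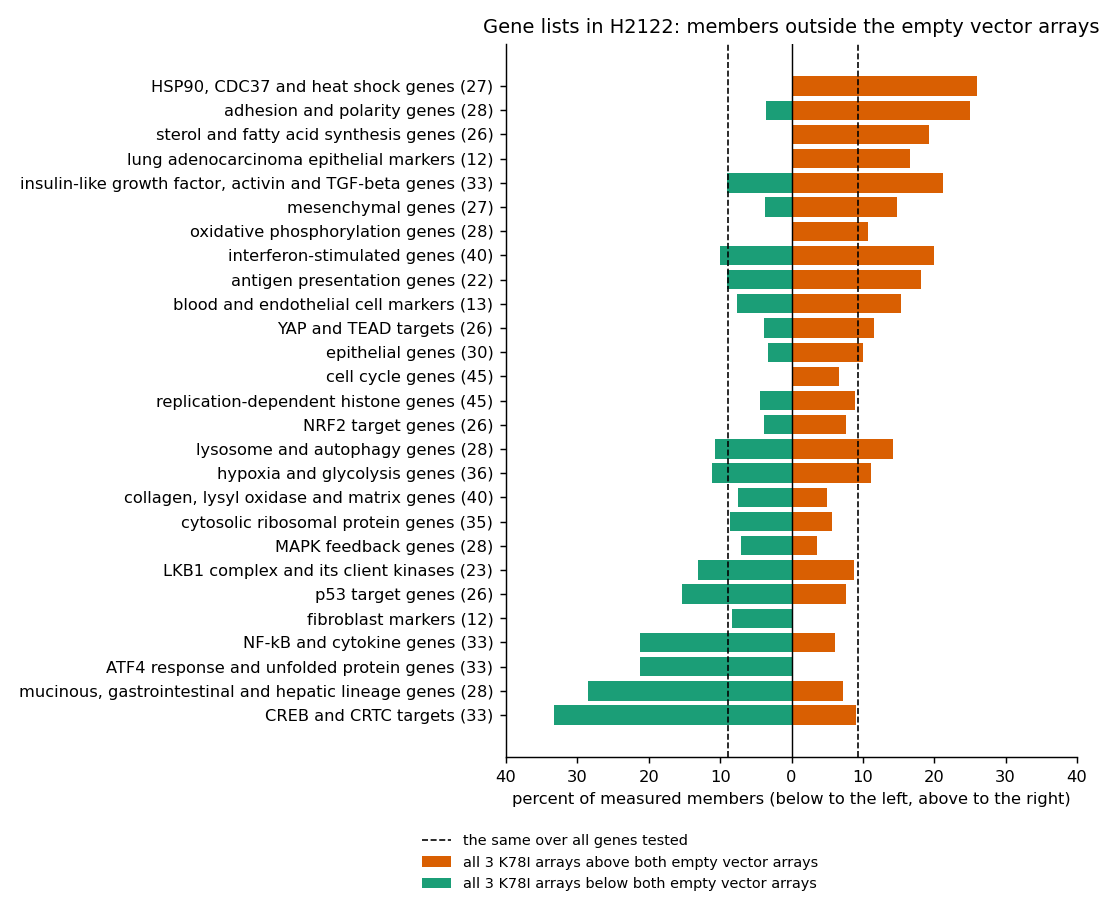
Share of the measured members of each gene list (horizontal axis, percent; number of members in parentheses) with all 3 K78I arrays above both empty vector arrays, drawn to the right, or below both, drawn to the left. The dashed lines give the same shares over all 17958 genes, 9.33% and 8.89%. CREB and CRTC targets reach 33.3% below and the HSP90, CDC37 and heat shock list 25.9% above.

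Genes of the mucinous, gastrointestinal and hepatic lineage, a program that LKB1-deficient mucinous lung tumours can carry, also included members lower with K78I. Of 28 measured genes 8 were below both empty vector arrays (28.6%) and 2 above, none called, with a median of -0.26 for K78I minus pBABE and -0.25 for LKB1 minus pBABE. The K78I median was -0.31 against pBABE replicate 1 and -0.23 against replicate 2, so it did not turn on either array. The fibrinogen chain FGA was at 4.22, 4.46 and 4.71 with K78I, 6.41 and 7.76 with empty vector and 4.57, 4.79 and 4.47 with wild-type LKB1. Here both constructs overlapped and lay below the empty vector: K78I minus pBABE was -2.62 (SE 0.88, limma adjusted p 0.592) and LKB1 minus pBABE -2.48 (adjusted p 0.134). The K78I and wild-type levels of FGA lay under the array medians of 5.62 to 5.73, so their overlap may be that of groups near background. FGG, the fibrinogen gamma chain, was at 5.05, 4.86 and 6.52 with K78I and at 7.63 and 9.12 with empty vector, a difference of -2.89. SERPINA1, the antitrypsin made by liver, was at 4.36, 3.75 and 4.07 with K78I, 4.63 and 6.51 with empty vector and 5.35, 5.96 and 4.83 with wild-type LKB1, so K78I was the lowest group. MUC1, a membrane mucin, was -0.68 with K78I (-0.17 against pBABE replicate 1 and -1.19 against replicate 2) and -1.44 with wild-type LKB1. The transcription factor FOXA2 went the other way, at 6.11, 6.26 and 6.25 with K78I against 5.41 and 5.85 (0.58, limma adjusted p 0.486).

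HSP90 and its cochaperone CDC37 stabilise client kinases, LKB1 among them, and heat shock genes are induced when unfolded protein builds up. Of 27 measured genes of this list 7 (25.9%) were above both empty vector arrays and 0 below, none called, with a median K78I minus pBABE of 0.22, beside 0.09 for LKB1 minus pBABE. The median was 0.02 against pBABE replicate 1 and 0.42 against replicate 2, so most of its size came from pBABE replicate 2. DNAJB1, a cochaperone of HSP70 and a common readout of heat shock factor, was at 9.60, 9.77 and 9.69 with K78I, 9.27 and 8.88 with empty vector and 9.71, 9.77 and 9.96 with wild-type LKB1. K78I minus pBABE for DNAJB1 was 0.61 (SE 0.16, limma adjusted p 0.470), and LKB1 minus pBABE was 0.74 (adjusted p 0.0137). DNAJA1, another HSP70 cochaperone, was at 9.27, 9.40 and 9.39 with K78I, 9.14 and 8.70 with empty vector and 8.92, 8.997 and 9.12 with wild-type LKB1. HSPH1, BAG3, HSPB8, HSP90AB1 and HSPA2 were the other 5, with K78I minus pBABE between 0.22 for BAG3 and 0.81 for HSPA2. The HSPA2 value was 0.17 against pBABE replicate 1 and 1.44 against replicate 2.

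**Figure D3:**
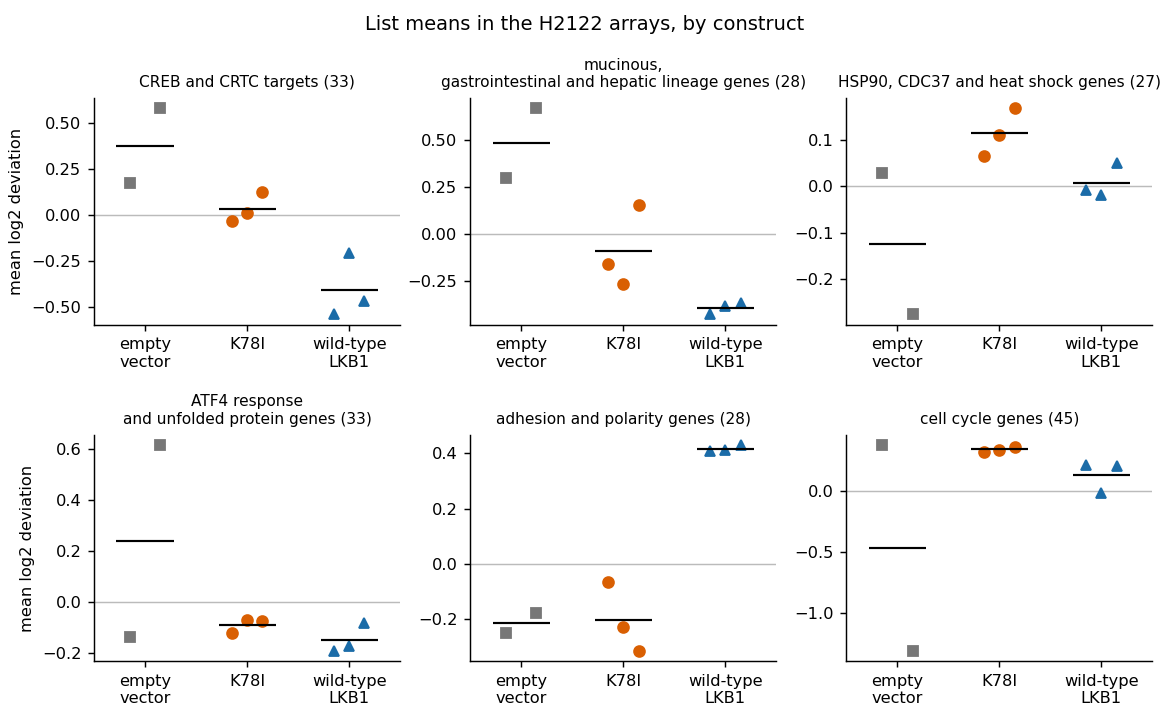
Mean over the measured members of 6 gene lists in each H2122 array, as the log2 deviation from the mean of the 3 H2122 group means (vertical axis, its own scale in each panel), with lines at the group means. In the CREB and CRTC list the K78I arrays sit between the other groups, in the adhesion list they sit with the empty vector, and in the cell cycle and ATF4 panels pBABE replicate 2 stands apart at -1.31 and 0.62.

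For 4 further lists the value turned on pBABE replicate 2. In such bulk RNA, fewer cells in cycle and less of these transcripts per cell cannot be told apart. The median of the 45 cell cycle genes was 0.83, with 22 of them at an unadjusted p under 0.05, yet it was -0.03 against pBABE replicate 1 and 1.69 against replicate 2. Only 3 of the 45 were above both empty vector arrays (6.67%, under the 9.33% of all genes). The ATF4 response and unfolded protein genes had a median of -0.31, which was -0.00 against pBABE replicate 1 and -0.64 against replicate 2. Of its 33 members 7 were below both empty vector arrays and 0 above, none called, among them EDEM1 at -0.59, ATF4, the factor itself, at -0.51 and the protein disulfide isomerase PDIA4 at -0.33. Against pBABE replicate 1 alone these 3 values were -0.19 for EDEM1, -0.21 for ATF4 and -0.21 for PDIA4. The MAPK feedback genes had a median of -0.25, which was 0.01 and -0.49 against either control array, and the replication-dependent histone genes 0.20, which was -0.08 and 0.39.

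Lists of inflammatory genes were mixed. Of 40 interferon-stimulated genes 8 were above both empty vector arrays (20.0%) and 4 below, none called. RIGI, a sensor of viral RNA, was at 7.21, 7.45 and 7.42 with K78I against 6.84 and 6.82, a difference of 0.53 (SE 0.13, limma adjusted p 0.353) that was 0.52 or 0.54 against either control array. The wild-type arrays of RIGI were at 7.30, 7.13 and 7.46, which overlaps K78I. BST2, or tetherin, which holds budding virus at the membrane, went the other way, at 4.23, 4.11 and 4.08 with K78I, 4.75 and 5.37 with empty vector and 4.13, 4.40 and 4.10 with wild-type LKB1. Both constructs lay below the empty vector for BST2, at a level under the array medians. Of 33 NF-kB and cytokine genes 2 were above and 7 below (21.2%), none called, with a median of -0.23 beside 0.12 with wild-type LKB1. The K78I median was -0.10 against pBABE replicate 1 and -0.22 against replicate 2, and the list means overlapped, at -0.02, -0.53 and -0.19 with K78I and -0.06 and -0.04 with empty vector. SOD2, a mitochondrial superoxide dismutase induced by NF-kB, was at 8.52, 8.19 and 8.95 with K78I against 9.06 and 10.36 with empty vector, a difference of -1.16 (limma adjusted p 0.475).

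In adhesion, mesenchymal and matrix genes the K78I medians lay near the empty vector. Of 28 measured adhesion and polarity genes, though, 7 (25.0%) had every K78I array above both empty vector arrays and 1 (3.57%) below. None was called, and over all genes these shares were 9.33% and 8.89%. Adhesion and polarity genes had a median of 0.04 for K78I minus pBABE and 0.47 for LKB1 minus pBABE. Of the 28 genes 13 were called higher with wild-type LKB1 than with K78I, against 2.98% of all genes. Their per-array means were -0.06, -0.23 and -0.32 with K78I, -0.25 and -0.18 with empty vector and 0.41, 0.41 and 0.43 with wild-type LKB1, so the K78I arrays overlapped the empty vector. ITGB6, an integrin subunit of epithelium, was at 8.61, 8.24 and 8.06 with K78I, 7.99 and 7.93 with empty vector and 10.60, 10.71 and 10.71 with wild-type LKB1. ITGAV, its alpha partner, was at 10.75, 10.80 and 10.40 with K78I, 10.25 and 10.14 with empty vector and 11.91, 11.98 and 11.88 with wild-type LKB1. Both integrin genes thus had K78I arrays above both controls by little, 0.34 and 0.46 on average. In the mesenchymal list 11 of 27 were called higher and 1 lower with wild-type LKB1 over K78I, against 2.98% and 0.908% of all genes. In the matrix list 11 of 40 were called higher. The mesenchymal and matrix medians for K78I minus pBABE were 0.06 and -0.04.

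The other lists had K78I medians from -0.05 to 0.15, beside -0.02 over all genes. The sterol and fatty acid synthesis genes had 5 of 26 above both empty vector arrays (19.2%) and 0 below, none called, with a median of 0.10, among them LSS and SQLE, which act late in cholesterol synthesis, at 0.68 and 0.59 (0.29 and 0.25 against pBABE replicate 1 alone). With wild-type LKB1 over K78I, 8 of 22 antigen presentation genes were called higher, against 2.98% of all genes. For K78I against empty vector, 4 of the 22 were above (18.2%) and 2 below (9.09%), none called, with a median of 0.01. One of the 4, HLA-F, a class I molecule, was at 7.27, 7.58 and 7.13 with K78I, 6.96 and 7.05 with empty vector and 7.89, 8.13 and 8.04 with wild-type LKB1, in between the other groups. The epithelial, p53, YAP and TEAD, hypoxia, oxidative phosphorylation, NRF2, lysosome and ribosomal protein lists and the cell type marker lists had medians from -0.05 to 0.15. The highest was that of the YAP and TEAD targets, at 0.08 against pBABE replicate 1 and 0.25 against replicate 2. Of its 26 members 20 had a positive difference, against 46.4% of all genes, and 3 were above both empty vector arrays (11.5%).

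Signalling genes of the TGF-beta and insulin-like growth factor families held 7 of 33 members above both empty vector arrays (21.2%) and 3 below, none called, with a median of 0.14 beside 0.48 for LKB1 minus pBABE. TGFB1, a ligand, was at 6.03, 6.07 and 5.48 with K78I, 5.08 in both empty vector arrays and 7.53, 8.10 and 7.85 with wild-type LKB1. The difference of 0.78 between K78I and pBABE for TGFB1 (SE 0.31, limma adjusted p 0.667) was the same against either control array, and LKB1 exceeded K78I by 1.97 (adjusted p 0.000871). SMAD3, which carries the signal of the receptor to the nucleus, was at 10.37, 10.04 and 9.93 with K78I against 9.90 and 9.91 with empty vector. BMP2, a ligand of the same superfamily, was at 7.54, 7.24 and 7.69 with K78I, 8.46 and 8.96 with empty vector and 6.90, 7.23 and 7.19 with wild-type LKB1. For BMP2 the K78I arrays were below both controls, with K78I minus pBABE at -1.22 and LKB1 minus pBABE at -1.61.

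The 6 genes with the lowest unadjusted p in each direction were taken by rule, and each had an adjusted p of 0.167. NRG1, or neuregulin, a ligand of ERBB receptors, was at 7.25, 7.54 and 6.95 with K78I, 6.13 and 4.65 with empty vector and 9.06, 8.75 and 9.63 with wild-type LKB1. Its groups did not overlap, with K78I between the others: K78I minus pBABE was 1.85 (SE 0.35) and LKB1 exceeded K78I by 1.90 (limma adjusted p 0.00295). MSRB3, a methionine sulfoxide reductase, had the same order at 6.36, 6.20 and 5.74 with K78I, 5.41 and 4.76 with empty vector and 7.01, 6.89 and 7.12 with wild-type LKB1.

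TACR1, the substance P receptor, was at 7.01, 7.88 and 7.18 with K78I, 6.21 and 5.40 with empty vector and 6.94, 6.74 and 7.08 with wild-type LKB1, so both constructs were above the empty vector. SOST, a secreted inhibitor of Wnt signalling, was at 8.73, 8.25 and 8.57 with K78I, 7.82 and 7.11 with empty vector and 8.35, 8.30 and 8.43 with wild-type LKB1. PGBD5, derived from a transposase, was 1.14 with K78I and 1.61 with wild-type LKB1 over the empty vector. For these genes the A549 values of K78I minus pBABE were 0.35 for NRG1, 0.02 for MSRB3, -0.08 for TACR1, 0.00 for SOST and -0.12 for PGBD5. The conflict of STK11 with the labels of 2 A549 control arrays limits these values as well.

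Among the lower genes, SLC6A14, an amino acid transporter, was at 8.09, 7.55 and 8.67 with K78I, 9.35 and 10.42 with empty vector and 6.92, 7.92 and 7.54 with wild-type LKB1. ADGRE2, an adhesion G protein-coupled receptor, was at 6.10, 5.90 and 6.57 with K78I, 7.18 and 8.37 with empty vector and 5.50, 5.63 and 6.03 with wild-type LKB1. In both genes the K78I arrays were below the empty vector and overlapped wild-type LKB1, with K78I minus pBABE at -1.78 and -1.58. MTMR7, a phosphoinositide phosphatase relative, was at 4.16, 3.79 and 4.24 with K78I and 4.78 and 6.06 with empty vector. Its difference of -1.36 was -0.72 against pBABE replicate 1 and -2.00 against replicate 2. CNPY1 was at 3.43, 3.46 and 3.52 with K78I and 4.57 and 4.28 with empty vector, a difference of -0.96 (-1.10 and -0.81). LKB1 minus pBABE was -1.02 for MTMR7 and -0.82 for CNPY1. The K78I levels of MTMR7 and CNPY1 were under the array medians and may be near background.

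The genes above were picked on empty vector arrays that the wild-type difference also uses, so their like signs are no result. OR5P3, an olfactory receptor gene, had differences of opposite sign with K78I and wild-type LKB1. It was at 5.44, 4.91 and 5.49 with K78I, 6.57 and 7.48 with empty vector and 7.58, 7.04 and 7.86 with wild-type LKB1. Only the K78I arrays were low, at -1.74 from the empty vector (SE 0.31), and wild-type LKB1 exceeded K78I by 2.21 (limma adjusted p 0.000419). Its pseudogene relative OR5P1P had the same order, with K78I at 5.36, 4.75 and 5.87 and the other 5 arrays from 5.92 to 7.51. The probe sets of such close copies may share signal, so the pair is uncertain as 2 separate readings.

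**Figure D4:**
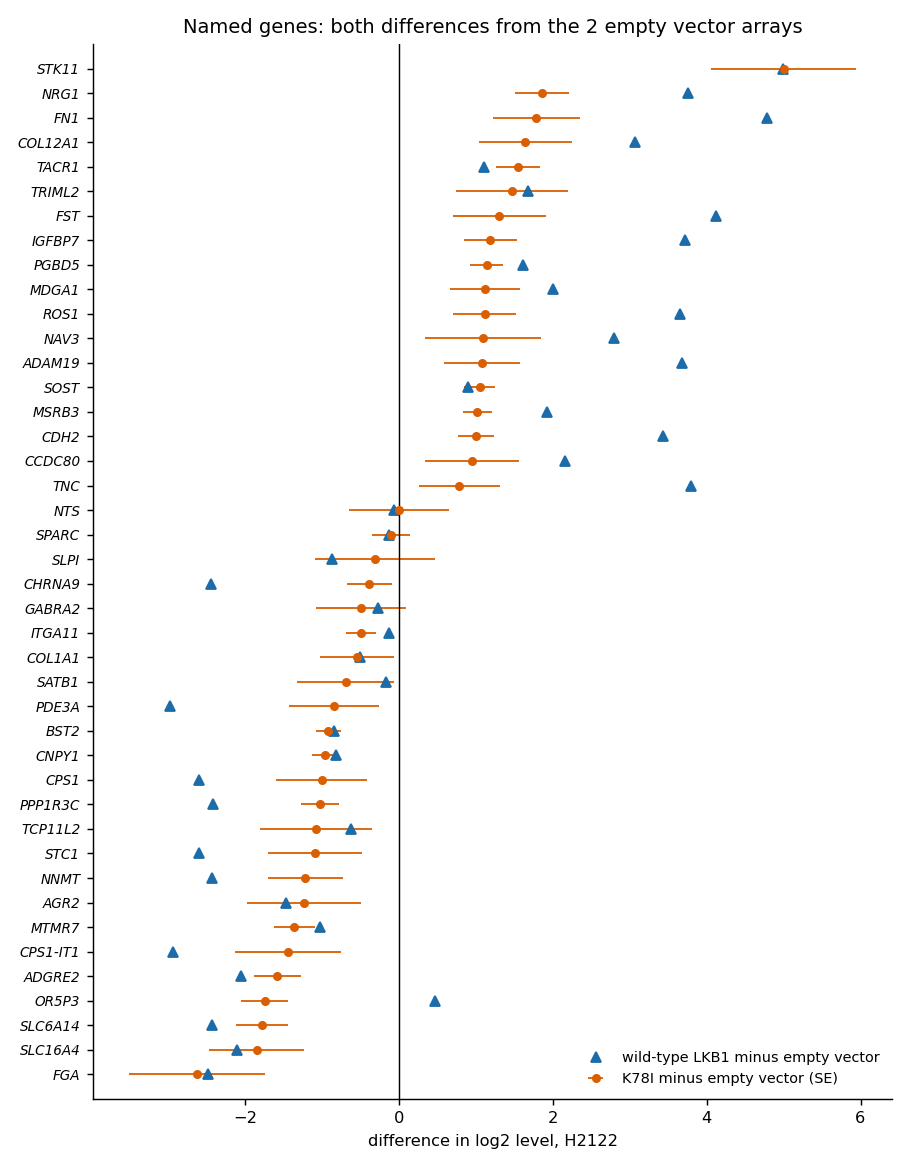
Difference in log2 level from the 2 empty vector arrays of H2122 (horizontal axis) for K78I (circles, bars of 1 SE) and wild-type LKB1 (triangles) in the 42 named genes, ordered by the K78I value. The 2 differences share the empty vector arrays. FN1, NRG1 and IGFBP7 lie to the right with the wild-type value further out, while for OR5P3 the signs differ (-1.74 and 0.47).

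Position among all 8 H2122 arrays showed how often K78I stood between or outside the other groups. The 3 K78I arrays lay between the groups with pBABE lowest and LKB1 highest for 374 genes (2.08%), and between them with pBABE highest and LKB1 lowest for 181 (1.01%). They lay above all 5 other arrays for 490 genes (2.73%) and below all 5 for 279 (1.55%). How many genes array order alone would put in these positions was not tested, so these are not counts of changed genes. Of these 490 and 279 genes, 27 and 25 also passed the limma test of LKB1 minus K78I. Over all genes 0.908% passed as lower and 2.98% as higher with LKB1. The position already sets every K78I array beyond every LKB1 array, so passing that test is no separate support. PDIA4, a disulfide isomerase of the endoplasmic reticulum, was at 9.79, 9.78 and 9.70 with K78I, 9.96 and 10.21 with empty vector and 10.30, 10.56 and 10.45 with wild-type LKB1 (LKB1 over K78I 0.68, adjusted p 0.00115). ITGB1, the shared integrin beta subunit, was at 9.77, 9.83 and 9.61 with K78I, 9.94 and 10.42 with empty vector and 10.64, 10.55 and 10.52 with wild-type LKB1. ITGB1 was therefore lowest with K78I, and LKB1 exceeded K78I by 0.84 (adjusted p 0.00701). On the high side, AAMP, a migration-associated protein, was at 9.68, 9.53 and 9.60 with K78I, with the other 5 arrays from 7.92 to 8.91. DLX5, a homeobox factor, was at 7.998, 8.14 and 8.25 with K78I, with the others from 6.87 to 7.79. OR5P3, OR5P1P, PDIA4, ITGB1, AAMP and DLX5 were picked from these 52 genes after their values were seen.

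Whether the K78I values lay along the wild-type response was read with genes chosen on the 9 A549 arrays alone, which share no array with H2122. Wild-type LKB1 raised 639 genes in A549 over the mean of its control groups and lowered 236 (limma, adjusted p under 0.05). In H2122 the raised genes averaged -0.03, -0.13 and -0.18 in the K78I arrays, -0.24 and -0.21 with empty vector and 0.31, 0.36 and 0.35 with wild-type LKB1, each as the deviation from the mean of the 3 group means. The lowered genes averaged -0.02, -0.01 and 0.04 with K78I, 0.10 and 0.19 with empty vector and -0.18, -0.11 and -0.16 with wild-type LKB1. In both sets the K78I arrays lay between the other groups without overlap, nearer the empty vector for the raised genes. The K78I group mean was 0.12 above the empty vector for the raised genes and 0.14 below it for the lowered ones, beside 0.57 above and 0.30 below for wild-type LKB1.

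**Figure D5:**
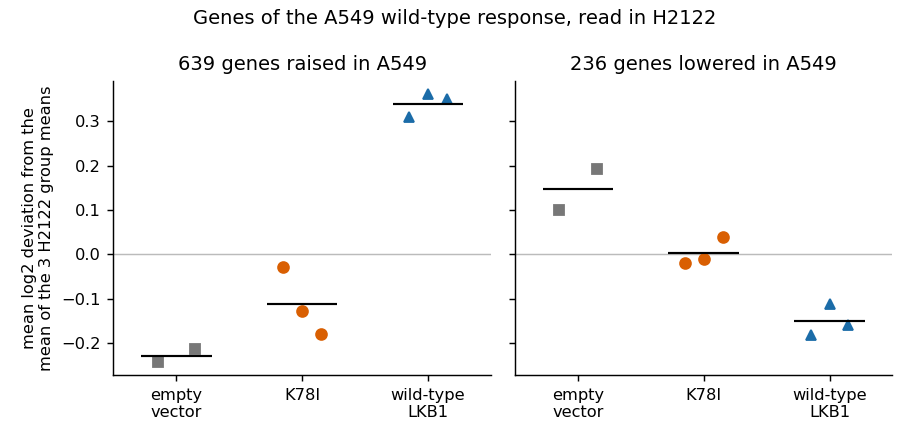
Mean log2 deviation from the mean of the 3 H2122 group means (vertical axis) over the 639 genes that wild-type LKB1 raised in A549 and the 236 that it lowered, in each H2122 array, with lines at the group means. The K78I arrays run from -0.18 to -0.03 for the raised genes, above the empty vector at -0.24 and -0.21, and from -0.02 to 0.04 for the lowered genes, below the empty vector at 0.10 and 0.19.

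Gene by gene, 133 of the 639 raised genes (20.8%) had every K78I array above both empty vector arrays and 26 (4.07%) below, against 9.33% and 8.89% of all genes. Of the 236 lowered genes 45 (19.1%) were below and 15 (6.36%) above. The median K78I minus pBABE was 0.07 over the raised genes and -0.09 over the lowered ones, beside -0.02 over all genes. Against pBABE replicate 1 alone the medians were 0.12 and -0.04, and against replicate 2 alone 0.04 and -0.12, so the signs held with either control while the sizes moved by more than 1.5 times. The raised median was also 0.04 without K78I replicate 1 and 0.03 with each array centred on its median. When the 2 A549 arrays with STK11 against their label were left out of the choice of genes, the medians were 0.09 and -0.09. Over genes changed at least 2-fold in A549 (296 raised, 98 lowered) the medians were 0.16 and -0.20, the latter -0.07 against pBABE replicate 1 and -0.38 against replicate 2. Across 17958 genes, which are not independent replicates, K78I minus pBABE in H2122 had a Pearson r of 0.226 with the A549 response, 0.178 with pBABE replicate 1 as the only control and 0.174 with replicate 2, and LKB1 minus pBABE had 0.364.

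The K78I arrays stood between the groups, in the order of the A549 response, for 87 of the 639 raised genes (13.6%, against 2.08% of all genes) and in the reverse order for 0. For the lowered genes the counts were 13 (5.51%, against 1.01%) and 2. This position also needs every LKB1 array beyond all other H2122 arrays. LKB1 minus pBABE was called higher for 192 of the 639 raised genes, against 749 of all 17958 genes. It was called lower for 31 of the 236 lowered genes, against 288 of all genes. The shares in between therefore also count the wild-type response in H2122 and do not by themselves place K78I. Single genes with the strongest A549 response did not all follow. IGFBP7 did, and MDGA1, a membrane-anchored adhesion protein, was at 5.96, 5.88 and 5.95 with K78I, 5.32 and 4.31 with empty vector and 6.93, 6.49 and 7.01 with wild-type LKB1. The matrix protein SPARC was at -0.11 and the collagen COL1A1 at -0.55 for K78I minus pBABE, and their values for LKB1 minus pBABE in H2122 were -0.13 and -0.51, so these 2 genes of the A549 response did not rise in H2122 with either construct. Of the genes lowered most in A549, FGA was at -2.62 with K78I, while the neuropeptide gene NTS was at 0.01. AGR2, a secretory disulfide isomerase, was at -1.23, which was -0.57 against pBABE replicate 1 and -1.90 against replicate 2.

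Apart from STK11, the 15 other genes with the largest wild-type differences in H2122 gave K78I values of the same sign and smaller size. FST, or follistatin, an inhibitor of activin, was at 8.06, 6.25 and 6.83 with K78I, 6.47 and 5.01 with empty vector and 10.23, 8.602 and 10.75 with wild-type LKB1, so K78I overlapped the empty vector. ROS1, a receptor tyrosine kinase, was at 7.57, 6.73 and 6.78 with K78I, 6.81 and 5.03 with empty vector and 9.92, 9.19 and 9.60 with wild-type LKB1, and its K78I and empty vector arrays overlapped as well. ADAM19, a membrane protease, was at 1.08 for K78I minus pBABE (0.63 against pBABE replicate 1 and 1.54 against replicate 2) beside 3.68 for wild-type LKB1. The matrix protein TNC, tenascin C, was at 0.79 beside 3.79. TNC was -0.42 against pBABE replicate 1 alone. CPS1, the carbamoyl phosphate synthetase of the urea cycle, was at 10.52, 11.25 and 11.46 with K78I, 11.67 and 12.49 with empty vector and 8.69, 10.47 and 9.28 with wild-type LKB1. CHRNA9, a nicotinic receptor subunit, was at 5.82, 6.18 and 6.83 with K78I against 6.96 and 6.37 with empty vector, and at 3.98, 4.84 and 3.82 with wild-type LKB1. Because these genes were chosen by a comparison that uses the same empty vector arrays, their K78I signs support nothing by themselves.

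The genes on which the empty vector arrays differed most had K78I values set by the choice of control. SLC16A4, a monocarboxylate transporter relative, was at 6.53 in pBABE replicate 1 and 9.57 in replicate 2, and at 6.01, 6.45 and 6.14 with K78I. COL12A1, a collagen, was at 8.89 and 5.77 with empty vector and at 9.30, 8.46 and 9.16 with K78I. TRIML2, SATB1, NAV3 and TCP11L2 also differed by over 3 units between the empty vector arrays. The source name of replicate 2, wild-type LKB1, is among the conflicting ones. Its STK11 of 6.22 and FN1 of 5.21 lay under every wild-type array (lowest 11.20 and 10.98), which goes with its title. Why the empty vector arrays differ was not tested.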

How the data were processed

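The authors deposited log2 expression levels per transcript cluster, which the submitters' processing notes credit to the RMA method of Affymetrix Expression Console 1.1. RMA makes array distributions alike and would hide a shift shared by most genes. A genome build was not given in the sources used here. No detection calls were used, and precision is limited by how many arrays there were. Of 33297 probe sets 19181 had 1 symbol in the platform annotation, 2055 several and 12061 were not listed. Of several probe sets of a gene the one with the highest mean was kept (895 genes), which left 17958 genes. Groups came from the titles.

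Tests used limma 3.58.1 in R 4.3.3 (lmFit and eBayes over 6 groups and 17 arrays, residual degrees of freedom 11, prior 3.8) with adjustment by Benjamini-Hochberg over 17958 genes and calls at 0.05. STK11 had an exact permutation test as well. The fit was tested on simulated data. The named genes were STK11, FN1, CDH2 and IGFBP7, the 6 lowest unadjusted p in each direction, the genes with the highest and lowest wild-type values in A549 (6 each) and in H2122 (8 each), and the 6 on which the empty vector arrays differed most. Members of gene lists are named by their position among the arrays. The comparison, the gene lists and the tests were chosen with earlier results of these data known. Alternatives covered the samples in the fit, the labels, the filter on dim genes, the probe set rule, array weights, median centring, a replicate block and each array left out.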

Additional observations from a re-analysis of the deposited data

How the results depend on the processing

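With limma, the count of genes called for K78I against empty vector in H2122 was 0 (1260 at an unadjusted p under 0.05) and stayed 0 with the dim genes left out, median centring, quantile normalization, array weights, averaged probe sets, a prior with trend and robust fit, every probe set, grouping by source name and the 3 arrays with conflicting labels left out. It was 1, STK11, with the 8 H2122 arrays alone, with the 5 compared arrays alone and without the 2 A549 arrays whose STK11 goes against their label. In these 3 settings the STK11 difference was 5.00, with limma adjusted p of 1.61e-07, 7.32e-05 and 2.65e-08, and 1 list member was called. STK11 was 2.48 when grouped by source name. With 1 array left out at a time, the counts ran from 0 to 1041 for K78I minus pBABE, 462 to 1800 for LKB1 minus pBABE, 281 to 957 for LKB1 minus K78I, 0 to 603 for the difference between lines and 0 to 92 for list members, and STK11 from 4.95 to 5.06 (limma adjusted p 0.0279 without pBABE replicate 1). The cause was not tested. LKB1 minus pBABE gave 2 genes and LKB1 minus K78I 0 by source name (948 at an unadjusted p under 0.05), 214 and 200 without the 3 conflicting arrays and 645 and 3721 with array weights.

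Over the genes raised in A549 the median K78I value was 0.21 by source name, 0.15 without the conflicting arrays and 0.16 over genes changed at least 2-fold, and 0.043 to 0.12 with 1 array left out. Over the lowered genes it was -0.13 by source name and -0.062 without the conflicting arrays. It was -0.14 for genes chosen against A549 K78I alone, -0.20 for 2-fold changes and -0.12 to -0.043 with 1 array left out. By source name the sign turned for OR5P3 (0.042), NTS (-0.074), SATB1 (0.57) and TCP11L2 (0.13), and without the conflicting arrays for SPARC (0.018), SLPI (0.035), TNC (-0.23), SATB1 (0.85), NAV3 (-0.33), COL12A1 (-0.014) and TCP11L2 (0.36). NTS was -0.040 with median centring. With 1 array left out the values ran from -0.22 to 0.0055 for SPARC, -0.064 to 0.042 for NTS, -0.73 to 0.12 for SLPI, -0.42 to 1.99 for TNC, -0.18 to 3.12 for TRIML2, -2.28 to 0.89 for SATB1, -0.48 to 2.67 for NAV3 and -2.59 to 0.44 for TCP11L2. Of the named genes' values 704 kept direction and side of the threshold, 26 newly passed it and 21 turned; 428 list medians stayed within the spread between arrays and 76 moved.

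Same-numbered H2122 arrays deviated together with correlations of 0.0639 to 0.42 over 7 pairs, and A549 arrays with -0.644 to 0.352 over 9 pairs, so the numbers were not taken as a pairing. In H2122 each K78I and LKB1 array correlated best with its own number in the other group (6 of 6), a hint from the data, not the design. With a replicate block the counts were 0 for K78I minus pBABE, 935 for LKB1 minus pBABE, 712 for LKB1 minus K78I and 0 for the difference between lines, and STK11 was 5.01 (limma adjusted p 0.257). Levels near the lower end of the arrays cannot be told from background.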
